A study of Salmo trutta with 24 samples.

Results

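The genes described here are the vitellogenins and nothepsin of brown trout (*Salmo trutta*) liver: *vtg1*, *vtg2*, *vtg3*, *vtg6*, *vtg7*, the vitellogenin gene si:dkey-4c23.3 and *nots*. Their transcripts were found by name, as every assembled transcript (contig) whose zebrafish annotation held the words vitellogenin or nothepsin or the symbol si:dkey-4c23.3, in any of the 6 deposited tables. This gave 136 of the 66359 transcripts listed in the tables, in 7 genes: 29 contigs of *vtg1*, 68 of *vtg2*, 5 of *vtg3*, 27 of *vtg6*, 4 of *vtg7*, 2 of si:dkey-4c23.3 and 1 of *nots*.

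Liver RNA of 24 adult male brown trout from a fish farm was sequenced fish by fish, to describe the response of the liver to 17β-estradiol (E2), the main natural estrogen, and to linuron, a herbicide with anti-androgenic action. The groups were 6 control fish kept in water alone, 3 fish at each concentration of E2 (34.4, 18.1 or 1.9 ng/l) and 3 fish at each concentration of linuron (225.9, 15.3 or 1.7 µg/l), all as measured in the water. Each concentration was run in 1 tank and the control in a pair of tanks, so the effects of tank and of concentration cannot be told apart, and the sample labels do not give the tank of a control fish. The exposure lasted 4 days by one label field and by the study's methods, but 14 days by the treatment text of the same labels. No genotype or strain is given, and the 6 tables share the same control fish, whose counts were identical in all of them.

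Vitellogenins are large lipid-carrying proteins that the liver of egg-laying vertebrates makes under the control of estrogen and secretes into the blood. The ovary takes them up and cuts them into the yolk proteins that feed the embryo, among them the phosphate-rich phosvitin. Males carry the genes but normally keep them almost silent, so that vitellogenin in a male fish is a widely used marker of estrogenic exposure. Nothepsin is an aspartic protease akin to cathepsins D and E, known from fish liver, and a role in the processing of vitellogenin has been proposed for it.

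The deposited values are counts of reads per contig, and the counts of a fish summed to between 3894392 and 10736246 over the 24 fish. Levels are given below as CPM, that is, counts relative to the library size, with libraries scaled by the TMM method. Contig lengths were not used, so a share of reads is not a share of molecules, and genes are not ranked by transcript number. A whole liver was measured, in which more cells with a transcript and more transcript per cell cannot be told apart. At 34.4 ng E2/l, 187 contigs of 9 hepatocyte markers took 7.24 to 7.86% of the counts, against 8.64 to 15.02% in the controls. Of the 187 contigs, 8 were lower and 0 higher by edgeR's quasi-likelihood test. That test called 0.791% of all transcripts lower and 1.47% higher. The part of this difference in marker share in the results was not tested. Red blood cell markers (5 contigs) and exocrine pancreas markers (5 contigs) overlapped between the groups, and no contig was listed for any of the oocyte and testis markers.

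All 136 contigs were listed in the table for 34.4 ng E2/l, and hardly any elsewhere. The tables for both lower E2 concentrations and for 15.3 and 225.9 µg linuron/l listed 0 of the 136, and the table for 1.7 µg linuron/l listed 1, a contig of *vtg3*. A contig that is not listed has values that are not given, which are not zeros. Each listed transcript had at least 1.03 CPM in at least 3 of its 9 fish, here on plain library totals without TMM. This limit corresponds to between 4 and 12 counts according to the fish. Of the 136 contigs, 135 had 0 control fish at that limit and 1 had 1 control fish there. Hence, for each of these 135 contigs, up to 2 fish of an exposed group could have reached the limit without the contig being listed, but at least 1 fish of the 3 lay below it. At 34.4 ng E2/l all 3 fish were above the limit for all 136 contigs. The lowest level of any contig in any of these fish was 6.26 CPM on TMM-scaled libraries.

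Reads of the 7 genes made up 4.16 ± 0.245% (SD, n = 3) of all counts at 34.4 ng E2/l, and *vtg1* alone 1.95 ± 0.211%. *vtg2* took 1.03 ± 0.0743% and *vtg6* 0.992 ± 0.0436%. The remaining genes were far below these, with 0.0929 ± 0.0252% for *nots*, 0.0773 ± 0.0358% for *vtg3*, 0.0075 ± 0.000523% for si:dkey-4c23.3 and 0.00645 ± 0.00174% for *vtg7*. Ordered by summed CPM among 10446 annotated genes, *vtg1* was 6th, *vtg2* 10th and *vtg6* 11th, whereas *nots* was 112th, *vtg3* 133rd, si:dkey-4c23.3 943rd and *vtg7* 1070th. Single contigs were ranked in another set, of 59151 transcripts, and the reads of every gene but *nots* were divided among contigs. There 0 of the 136 were among the 100 most abundant transcripts but 99 were among the first 1000, and the single *nots* contig was 144th. *vtg2* and *vtg6* are neighbours in the order of gene sums and their values overlapped over the fish, as did those of *nots* and *vtg3*, and of si:dkey-4c23.3 and *vtg7*. Compared within each exposed fish, *nots* was above *vtg3* in all 3, whereas the order within the other pairs turned round in fish 3.

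*vtg1*, the form with the most reads, is one of the vitellogenins with a phosvitin domain. Its summed level was 17408, 16513 and 19281 CPM in exposed fish 1, 2 and 3, and between 0.363 and 3.94 CPM in the 6 controls (median 1.68). The exposed fish were all above the controls by several orders of magnitude, a 9785 ± 779-fold difference of the means (SD over the exposed fish). The 95% counting interval of this ratio, from the 61 counts of *vtg1* in all controls together, was 7618 to 12793. In edgeR's quasi-likelihood test of the summed counts, adjusted by Benjamini-Hochberg over all sums, the adjusted p was 1.48e-08, and in that set of sums 1.41% of 36682 were called higher. Nearly all member contigs could be listed only through the exposed fish, so the direction of this and of the following sums was fixed by the listing, and their p-values are given as a description.

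The other forms with a similar abundance behaved alike in size. The *vtg2* sum was 8998, 10542 and 8617 CPM in exposed fish 1, 2 and 3, and 0 to 2.96 CPM in the controls (median 0.643), a ratio of 8714 ± 946. Without control fish 4, which held 19 of the 37 *vtg2* counts of the controls, the log2 ratio of *vtg2* was 13.71 in place of 13.10. Over the omissions of any single fish it ranged from 12.84 to 13.71. The ranges were 13.05 to 13.64 for *vtg1* and 12.93 to 13.67 for *vtg6*. The *vtg6* sum was 8754, 9050 and 9266 CPM in the exposed fish and 0 to 2.34 CPM in the controls (median 0.852), a ratio of 9340 ± 266. Both were called in the sums by edgeR's test, with adjusted p = 3.08e-07 for *vtg2* and 4.42e-08 for *vtg6*. The counting intervals were 6322 to 12376 for *vtg2* and 6684 to 13486 for *vtg6*, so with all controls the ratios of *vtg1*, *vtg2* and *vtg6* lay within each other's intervals.

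*vtg3* is the phosvitinless form, which lacks the phosphate-rich domain of the other vitellogenins. Its summed level was 716, 380 and 993 CPM in exposed fish 1, 2 and 3. In the controls it was 0 to 3.08 CPM with a median of 1.22. Its ratio was 488 ± 215, with adjusted p = 1.36e-06 in edgeR's test of the sums. The counting interval of 372 to 653 lay below that of *vtg1*, but such an interval leaves out the spread between fish. Of the 52 control counts of *vtg3*, 18 were from control fish 1. The 2 ratios were not compared by a test over fish, and a test over fish of the *vtg3* share is given below.

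The 2 rarest forms were almost never read in controls. *vtg7* reached 56.6, 45.2 and 73.4 CPM in exposed fish 1, 2 and 3, and 5 of the 6 controls had 0 counts of it while control fish 5 had 2. The ratio was 1256 ± 305 with a counting interval of 348 to 10374. si:dkey-4c23.3 reached 61.8, 72.1 and 70.99 CPM, and had 0 counts in all 6 controls. Against a floor of 3 counts per control library, which equals 0.490 CPM, it was at least 139 ± 11.5-fold higher.

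*nots*, the protease, was represented by a single contig. It had 7286, 5242 and 9014 counts in exposed fish 1, 2 and 3, which correspond to 853, 631 and 1040 CPM. Of the controls, 5 had 0 counts and control fish 6 had 2 counts. The 3 exposed fish were therefore far above every control, and the ratio of 17327 ± 4226 rests on those 2 control counts, with a counting interval of 4797 to 143076. These 2 counts may be both ends of 1 read pair, so this interval may be too narrow. All 7 sums were called by edgeR's test, with adjusted p between 3.88e-09 (*nots*) and 1.36e-06 (*vtg3*). Of all sums, 1.41% were called higher. All 7 summed genes had the 3 exposed fish above the 6 controls, and the exact two-sided permutation test of each sum gave p = 0.0238, the smallest that 3 against 6 fish allow. Of all single transcripts, 5.22% had such a separation. Nearly all member contigs could be listed only through the exposed fish, so these counts of 7 and this p are given as a description.

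**Figure D1:**
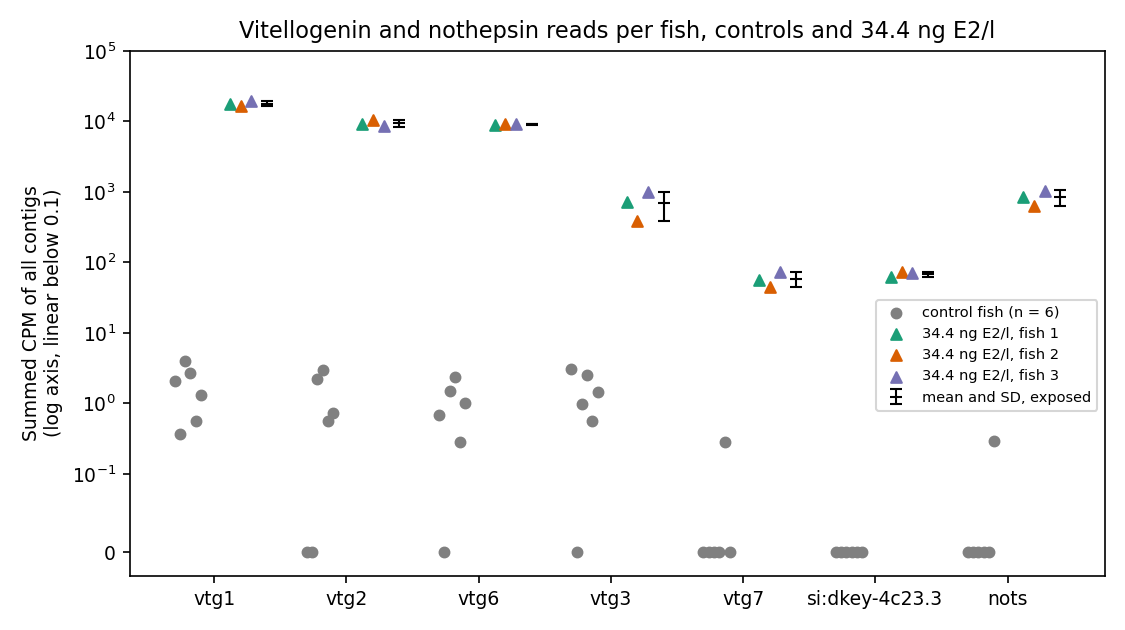
Summed CPM of all contigs of each gene in each of the 6 control fish (grey circles) and each of the 3 fish at 34.4 ng E2/l (triangles), on a log axis that is linear below 0.1. Black bars give the mean and SD of the exposed fish; the highest control value of any gene is 3.94 CPM (*vtg1*) and the lowest exposed value is 45.2 CPM (*vtg7*).

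Counted contig by contig, all 136 were called higher at 34.4 ng E2/l, with adjusted p between 1.71e-10 and 3.62e-05 by edgeR's quasi-likelihood test, adjusted over the 59151 transcripts listed there. Among all of these, 1.47% were called higher, 0.791% lower and 2.26% in either direction, and 5.22% had all 3 exposed fish above all 6 controls. A contig with next to no reads in controls could enter the table only through the exposed fish, so this count of members had to be high and is given as a description. For 71 of the 136 contigs there were no counts in any control, and their differences were at least 24.9-fold to at least 793-fold (median of the bounds 336-fold). For the other 65, which had 1 or more control counts, the lowest ratio was 381 (contig comp71896_c0_seq3 of *vtg3*). The highest count of a member contig in a control was 8, in the same contig of *vtg3*.

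The controls were not empty of vitellogenin reads. Summed over all vitellogenins, control fish 1 to 6 had 34, 3, 35, 67, 16 and 31 counts, or 5.82, 0.363, 8.62, 10.4, 2.23 and 4.51 CPM. Every control fish had at least 2 member contigs with a count, and control fish 4 had 35 such contigs. These levels are 0.000981 to 0.0282% of the mean of the exposed fish. Control fish 2 stood lowest and control fish 4 highest, with control fish 3 close to it.

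The make-up of these few control counts was not that of the exposed fish. Of the 186 vitellogenin counts in all controls, 61 were *vtg1* (32.8%), 52 were *vtg3* (27.96%), 37 were *vtg2* (19.9%), 34 were *vtg6* (18.3%) and 2 were *vtg7* (1.08%). In the exposed fish *vtg1* took 47.9 ± 2.64% (SD, n = 3) of the vitellogenin counts, *vtg2* 25.4 ± 3.17%, *vtg6* 24.4 ± 0.278%, *vtg3* 1.87 ± 0.784%, si:dkey-4c23.3 0.185 ± 0.0126% and *vtg7* 0.158 ± 0.0340%. These control shares pool fish of unequal totals: 18 of the 52 *vtg3* counts were from control fish 1, and *vtg3* had more counts than *vtg2* in control fish 1 and 6 but not in the other 4. The difference in the *vtg3* share was noticed in the data and then tested on the same data.

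Fish by fish, *vtg3* made up 52.9, 0, 11.4, 23.9, 25 and 32.3% of the vitellogenin counts of control fish 1 to 6, and 1.99, 1.04 and 2.59% in exposed fish 1 to 3. The share was higher in 5 of the 6 controls than in any exposed fish. The exception was control fish 2, whose total was 3 counts, so that its 95% exact interval reached from 0 to 70.8%. The means of 24.3 ± 18.1% (SD, n = 6) and 1.87 ± 0.784% (SD, n = 3) gave p = 0.0952 in the exact two-sided permutation test, which does not pass the threshold of 0.05 (smallest possible p 0.0238). The exact permutation test gave p = 0.143 without each of the other 5 controls and p = 0.214 without each exposed fish. The same exact test passed only without control fish 2, the control that went the other way (p = 0.0357, the smallest that 3 against 5 fish allow), so the call depends on that fish.

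**Figure D2:**
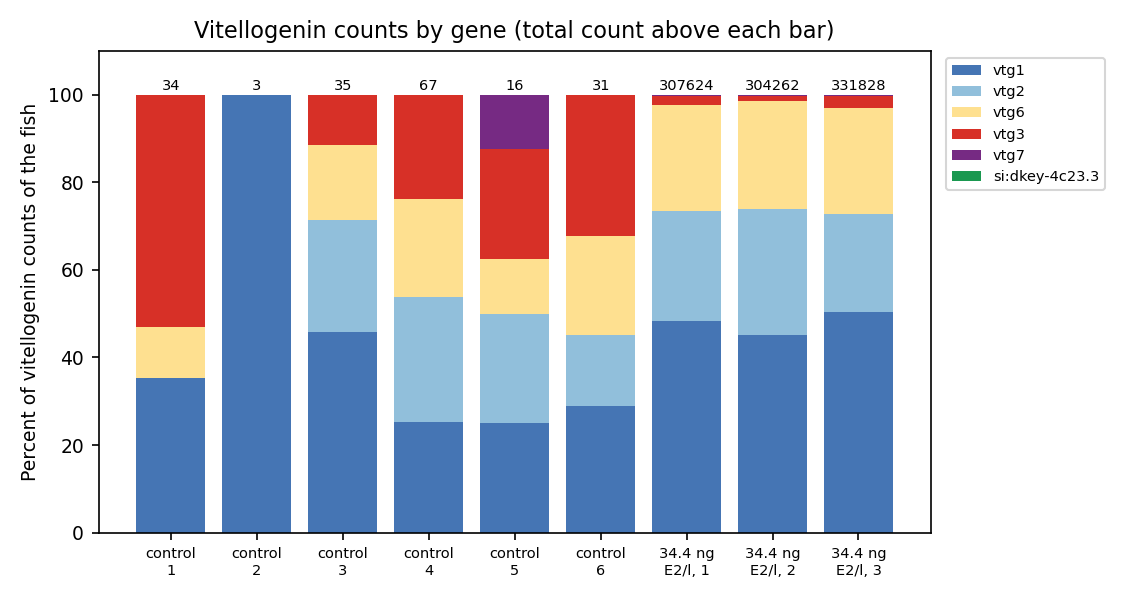
Percent of the vitellogenin counts of each fish that belong to each gene, for 6 controls and 3 fish at 34.4 ng E2/l, with the total of vitellogenin counts above each bar. The *vtg3* band is 11.4 to 52.9% wide in 5 controls, absent in control fish 2, which had 3 counts, and 1.04 to 2.59% wide in the exposed fish.

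Contigs of one name are not separate genes. All 136 contigs belonged to 5 assembly components, that is, groups of contigs that the assembler linked through shared sequence. One component, comp92118, held 124 of them: all 29 of *vtg1*, 67 of *vtg2*, 26 of *vtg6* and both of si:dkey-4c23.3. The 5 contigs of *vtg3* formed a component of their own, as did the single *nots* contig and the 4 of *vtg7*, the last with 4 contigs that carry no annotation. The remaining *vtg2* and *vtg6* contigs shared a component, comp51963, with each other. Each read was given to 1 best hit, so the division of reads among contigs of a component, and among *vtg1*, *vtg2* and *vtg6*, is uncertain, while the sum over comp92118 of 36080 ± 984 CPM (SD, n = 3) does not depend on it.

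The other annotation columns drew different borders. The 48 *vtg2* contigs matched to one zebrafish *vtg2* transcript and the 20 matched to a second one had similar median levels of 154 and 124 CPM. A single cod gene was the best match of 58 contigs, namely all 29 of *vtg1*, 15 of *vtg2* and 14 of *vtg6*, and a second cod gene that of 29 contigs of *vtg2*, 11 of *vtg6* and both of si:dkey-4c23.3. For *vtg3* and *vtg7* no match in another fish was listed. No vitellogenin contig had a human or mouse match, whereas 91.1% of the 32915 zebrafish-annotated transcripts of the table did. The *nots* contig was the 1 member with such a match, to human cathepsin E.

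Contig levels within a gene were even in some genes and graded in others. The 29 contigs of *vtg1* fell into 2 levels: 11 between 1004 and 1032 CPM and 18 between 351 and 388 CPM, with a step of 2.59-fold between them and none in the gap. The 11 upper contigs carried 63.2% of the *vtg1* CPM. The most abundant one, comp92118_c0_seq46, had 8744, 7676 and 9955 counts in exposed fish 1, 2 and 3 and 2 counts in all controls together. The least abundant *vtg1* contig, comp92118_c0_seq94, had 2945, 2908 and 3108 counts and none in controls, which makes it at least 717 ± 14.6-fold higher.

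The *vtg6* contigs of comp92118 lay at the lower of these levels. The 26 of them spanned 309 to 386 CPM, and 11 fell within the range of the lower *vtg1* contigs. The highest, comp92118_c0_seq92, had 3180, 3270 and 3389 counts in the exposed fish. The *vtg6* contig outside this component, comp51963_c0_seq2, was the lowest, with 804, 586 and 1023 counts.

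*vtg2* contigs formed a slope without steps of that kind, from 216 CPM in comp92118_c0_seq117 down to 13.8 CPM in comp92118_c0_seq47. Of the 67 in comp92118, 53 reached 100 CPM on average. The top contig had 1764, 1975 and 1769 counts in exposed fish 1, 2 and 3, and the bottom one 120, 101 and 131. In *vtg3*, 4 contigs lay between 152 and 172 CPM and comp71896_c0_seq4 at 60.5 CPM. The contigs of *vtg7* lay between 11.8 and 18.2 CPM, and those of si:dkey-4c23.3 at 39.6 and 28.7 CPM.

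**Figure D3:**
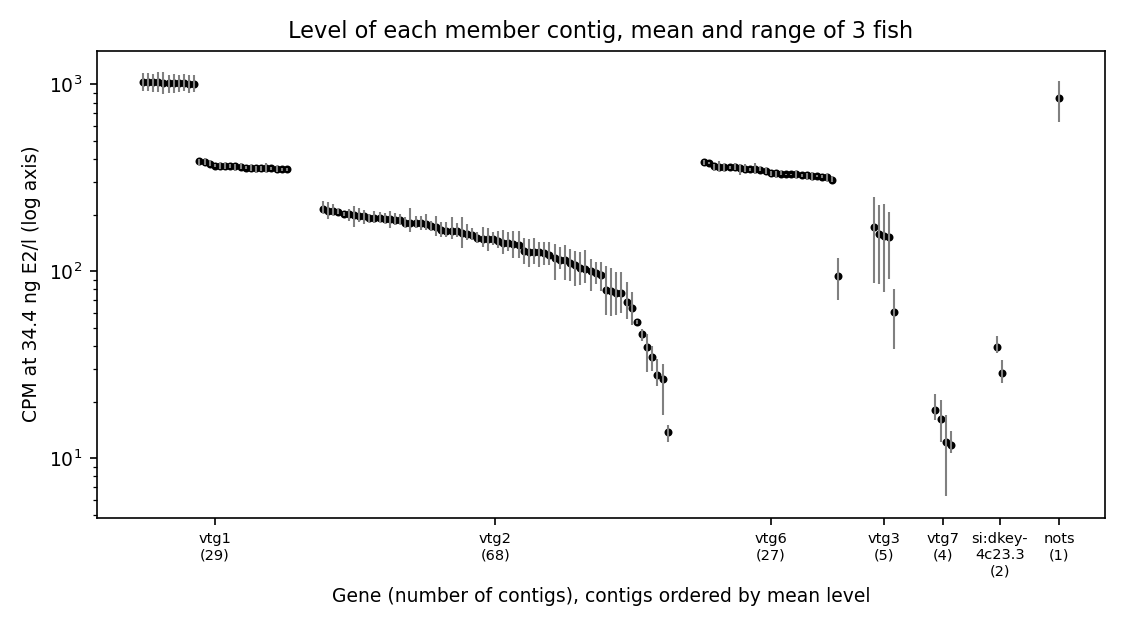
Mean CPM of each of the 136 contigs over the 3 fish at 34.4 ng E2/l (dots, log axis) with the range of the 3 fish (grey lines), by gene and ordered by level. *vtg1* shows 11 contigs above 1004 CPM and 18 below 389 CPM, *vtg6* lies beside the lower 18, and *vtg2* slopes down to 13.8 CPM.

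The exposed fish differed from each other more in some forms than in others. The coefficient of variation over the 3 fish was 2.85% for the *vtg6* sum, 7.96% for *vtg1*, 8.27% for si:dkey-4c23.3 and 10.9% for *vtg2*, but 24.3% for *vtg7*, 24.4% for *nots* and 44.1% for *vtg3*. For the sum of all vitellogenins it was 3.23%. Counting error was smaller than this for *vtg3* and *nots*, with a median of 2.76% per *vtg3* contig and 1.18% for *nots*. Over 7791 single transcripts with a mean of at least 10 CPM in the exposed fish, the median coefficient of variation was 17.0%. The depth of the 3 fish was nearly equal, between 7619612 and 7887826 counts, and what sets the fish apart was not tested.

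Fish 3 was highest and fish 2 lowest in *vtg3*, *vtg7* and *nots*, in each of their 10 contigs. The most abundant *vtg3* contig, comp71896_c0_seq3, had 1527, 724 and 2170 counts in fish 1, 2 and 3, and over the 5 contigs fish 3 had 2.08 to 2.93 times the CPM of fish 2. For *nots* this ratio was 1.65, for the 4 *vtg7* contigs 1.30 to 2.73 and for both contigs of comp51963 1.68 and 1.83. Among the same 7791 transcripts, the median ratio was 0.936, and 10.3% had a ratio of 1.65 or more. A ratio of the size seen in *nots* is thus found in about 1 transcript of 10, and with 3 fish these orders are a description.

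The order turned round in *vtg2*. In comp92118, 66 of the 67 *vtg2* contigs were lower in fish 3 than in fish 2, with a median ratio of 0.794. The median over the 7791 transcripts was also below 1, at 0.936. The 11 upper *vtg1* contigs were all higher in fish 3, with ratios of 1.23 to 1.31, whereas the 18 lower ones (0.961 to 1.08) and the 26 *vtg6* contigs (0.950 to 1.15) were close to even. The 2 levels of *vtg1* thus differed in their spread over fish as well, with median coefficients of variation of 11.4% and 3.52%. Contigs of one component share reads, so these contigs are not independent of each other.

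**Figure D4:**
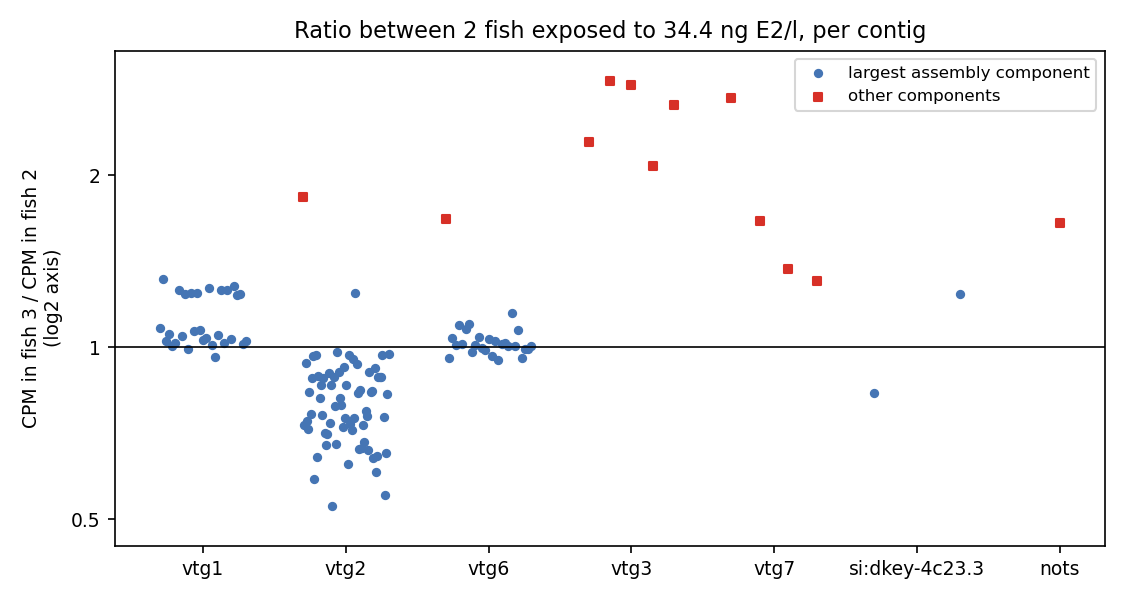
CPM in exposed fish 3 divided by CPM in exposed fish 2 for each of the 136 contigs, by gene, on a log2 axis, with the largest component in blue and the other 4 in red. All red squares lie above 1 (1.30 to 2.93), the *vtg1* contigs split into a group at 1.23 to 1.31 and a group near 1, and 66 of the 67 blue *vtg2* contigs lie below 1.

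Nothepsin and the vitellogenins did not keep one ratio. There were 42.2, 58.0 and 36.8 vitellogenin counts per *nots* count in exposed fish 1, 2 and 3, and 50.2, 96.3 and 38.6 vitellogenin counts per *vtg3* count. Between *vtg3* and *nots* themselves the ratio was 0.840, 0.603 and 0.955 *vtg3* counts per *nots* count. Fish 2 had the most vitellogenin counts per count of either gene, and the fewest *vtg3* counts per *nots* count.

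The *vtg3* contig listed at 1.7 µg linuron/l, comp71896_c0_seq3, was at the edge of detection. It had 15, 10 and 1 counts in linuron fish 1, 2 and 3, and 8, 0, 0, 3, 0 and 6 counts in control fish 1 to 6. The CPM of 0.942 ± 0.744 (SD, n = 3) and 0.446 ± 0.567 (SD, n = 6) overlapped, and 1 of the 3 linuron fish was above all controls. The log2 fold change was 1.03 (SE 1.14, adjusted p = 0.963 in edgeR's quasi-likelihood test), a difference within the spread of the fish. That table had 0 of 57238 transcripts called by this test, or 0%, with 3589 (6.27%) at an unadjusted p under 0.05 and 204 (0.356%) called by DESeq2. At 34.4 ng E2/l the same contig was 381 ± 181-fold higher than in controls, and its lowest fish there was 61.4 times as high as the highest linuron fish.

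**Figure D5:**
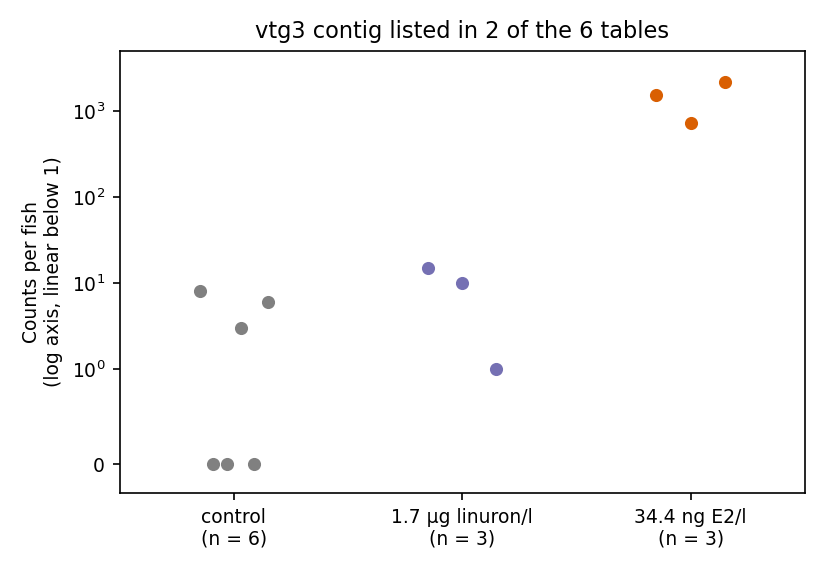
Counts of the *vtg3* contig comp71896_c0_seq3 in 6 controls, 3 fish at 1.7 µg linuron/l and 3 fish at 34.4 ng E2/l, on a log axis that is linear below 1. Controls and linuron fish overlap between 0 and 15 counts, while the E2 fish have 724 to 2170.

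An estrogen receptor gene rose together with the vitellogenins. Of the 13 contigs of nuclear estrogen receptors listed at 34.4 ng E2/l, 6 rose, all of them the 6 of *esr1*, the receptor that estrogen induces in fish liver (list median log2 fold change 0.28, against 0.02 over all transcripts). Among all transcripts listed there, edgeR called 1.47% higher. Summed *esr1* was 519 ± 27.4 CPM (SD, n = 3) against 20.01 ± 8.63 CPM (SD, n = 6). In the tables where no vitellogenin was listed, *esr1* was 53.5 ± 21.7 CPM (18.1 ng E2/l), 45.1 ± 50.5 CPM (1.9 ng E2/l), 18.2 ± 11.2 CPM (225.9 µg linuron/l) and 15.4 ± 12.8 CPM (15.3 µg linuron/l), with 0 contigs called by edgeR's or DESeq2's test. At 1.7 µg linuron/l, where 1 *vtg3* contig was listed, *esr1* was 9.40 ± 4.45 CPM (SD, n = 3), also with 0 contigs called. Scaled together with these fish, the controls had 19.8 ± 8.64 CPM (SD, n = 6). The fish at 18.1 ng E2/l lay between 28.5 and 68.2 CPM, and those at 1.9 ng E2/l between 12.3 and 103 CPM. At each of these E2 and linuron concentrations the exposed fish overlapped with the controls. The highest control was at 32.8 CPM beside 18.1 ng E2/l and at 31.5 CPM beside 1.9 ng E2/l. At an unadjusted p under 0.05 in edgeR's test, 6 of 14 receptor contigs were higher at the middle E2 concentration and 4 of 14 at the lowest. Of all transcripts, 2.54% and 4.07% passed that threshold in either direction. The 14 contigs belong to 3 receptor genes, so they are not independent of each other. Scaled together with the fish at 18.1 ng E2/l, the controls had 19.3 ± 8.39 CPM of *esr1* (SD, n = 6). For summed *esr1*, the exact two-sided permutation test gave p = 0.0476 at 18.1 ng E2/l and p = 0.476 at 1.9 ng E2/l. Neither p-value was adjusted for the number of tests. *esr2a* and *esr2b* had no called contig at 34.4 ng E2/l.

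The egg envelope proteins, which fish liver also makes for the ovary, had 17 contigs listed at 34.4 ng E2/l (median log2 fold change 7.15). By edgeR all 17 were called higher, against 1.47% of all transcripts. DESeq2 called 16 of them higher, and 4.81% of all transcripts in either direction. The single contig of *zp2.6* had 0 control counts, so the listing fixed its direction. For each of the 4 other annotations the leading contig lay in 1 assembly component, comp93476. The 17 contigs are therefore not independent of each other. In the controls they lay at 25.9 to 195 CPM in sum, against 0.363 to 10.4 CPM for the vitellogenins, and they were listed at the lower E2 concentrations too, with 242 ± 189 CPM (SD, n = 3) in the group exposed to 18.1 ng E2/l and 278 ± 398 CPM (SD, n = 3) in that exposed to 1.9 ng E2/l. In these 2 tables edgeR called 0% of all transcripts, with 2.54% (18.1 ng E2/l) and 4.07% (1.9 ng E2/l) at an unadjusted p under 0.05 in either direction. Of the 16 egg envelope contigs, 0 were called by edgeR or DESeq2, and 5 in each table were higher at that unadjusted threshold. With DESeq2 this number was 6 for the middle and 2 for the lowest E2 concentration, and on library totals it was 8 and 3. The largest summed value at 1.9 ng E2/l was 736 CPM in 1 fish, and the other 2 fish reached down to 29.8 CPM.

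The FAM20 family includes FAM20C, a kinase of the secretory pathway that in mammals phosphorylates secreted proteins. Only contigs of *fam20a* and *fam20b* were in this list, and kinase activity was not measured. Of 10 contigs, 7 rose at 34.4 ng E2/l and 0 fell by edgeR, which called 1.47% of all transcripts higher and 0.791% lower. The median log2 fold change was 2.67, against 0.02 over all transcripts. All 7 were of *fam20a*, so they are not independent of each other. The leading contig was at 0.645 ± 0.324 CPM in the 6 controls (0.311 to 1.09, near the listing limit of 1.03) and 6.53 ± 0.744 CPM in the 3 exposed fish. Its difference was 10.1 ± 1.15-fold with adjusted p = 1.40e-04 (edgeR). The 2 contigs of *fam20b* did not pass the test, with an adjusted p of 0.176 for the leading one.

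The list of large lipid transfer proteins held relatives of vitellogenin and *p4hb*, a partner protein that is not related to it. By edgeR, 0.791% of all transcripts were called lower at 34.4 ng E2/l and 1.47% higher. Of 42 contigs of this list, 26 fell and 4 rose there, and the median of their log2 fold changes was -1.10, against 0.02 over all transcripts. All 26 belonged to 1 gene, apolipoprotein Bb, a main protein of secreted lipoproteins, whose leading contig was at 621 ± 102 CPM in the 6 controls and 280 ± 24.9 CPM in the 3 exposed fish, adjusted p = 0.0148 (edgeR). The 4 that rose were 3 contigs of *p4hb*, a protein disulfide isomerase that forms part of the microsomal triglyceride transfer complex, and 1 of another apolipoprotein B annotation, at 2.82 ± 0.133-fold and 2.65 ± 0.296-fold for their leading contigs. The 7 contigs of *mttp*, the lipid transfer subunit, did not pass (lowest adjusted p = 0.0775). On library totals without TMM, which moves the median of all transcripts from 0.02 to 0.22, the counts were 7 higher and 7 lower, and without exposed fish 1, 2 or 3 the number that fell was 0, 3 and 0 and the number that rose 1, 3 and 1.

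Of the 28 contigs of cathepsins and other proteases of the aspartic and cysteine classes, 0 were called at 34.4 ng E2/l by edgeR or DESeq2, and at an unadjusted p under 0.05 there were 1 higher and 3 lower. Likewise 0 of the 41 contigs of low density lipoprotein receptors and related proteins were called by either test, with 1 higher and 5 lower at an unadjusted p under 0.05. Of all transcripts, 13.5% passed that unadjusted threshold in edgeR's test in either direction. The counts of both lists are close to that share and are not read as a change in either list. The list medians of log2 fold change were -0.0037 and 0.20. On library totals the medians were 0.20 and 0.40, against 0.22 over all transcripts. The unadjusted counts were then 3 higher and 0 lower for the proteases and 5 higher and 2 lower for the receptors. The proteases include cathepsin B, at 113 ± 16.8 CPM (SD, n = 6) and 77.3 ± 16.4 CPM (SD, n = 3) in its leading contig with adjusted p = 0.314 (edgeR).

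In the 5 other tables, 0 contigs of these 6 lists were called by edgeR. The share of all transcripts called in either direction there was 0% except at 225.9 µg linuron/l, where it was 0.153%. DESeq2 called 1 protease contig higher and 1 lipoprotein receptor contig lower at 225.9 µg linuron/l, where it called 1.33% of all transcripts, against 0.00176 and 0.0216% in the tables of the middle and lowest E2 concentrations and 0.016% for 15.3 µg linuron/l. At an unadjusted p under 0.05 in edgeR's test, 25 of the 42 lipid transfer contigs were lower at 225.9 µg linuron/l and 7 at 1.7 µg linuron/l, but 4 and 0 on library totals and 31 and 16 with DESeq2. By edgeR, 5 and 7 of the 16 egg envelope contigs were lower at these 2 concentrations. The 42 lipid transfer contigs belong to 4 annotations, and so do the 16 egg envelope contigs. Contigs of a list are therefore not independent of each other. In the list at 34.4 ng E2/l, 27 of the 42 were contigs of apolipoprotein Bb. The linuron counts were not split by gene. The share of all transcripts at an unadjusted p under 0.05 in either direction was 13.5% for 34.4 ng E2/l, 2.54% for 18.1 ng E2/l and 4.07% for 1.9 ng E2/l. It was 8.61% for 225.9 µg linuron/l and 6.27% for 1.7 µg linuron/l.

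Outside the 7 genes, 15 annotations had a contig with at most 3 counts in every control fish, and the 5 most like the members by rule are described, the likeness being measured as the fold against 3 counts per control library over these 9 fish. The nearest was a contig of si:dkey-179j5.2, at 30.5, 33.2 and 40.4 CPM in exposed fish 1, 2 and 3 with 3 counts in all controls together, a ratio of 546 ± 80.3 (counting interval 187 to 2649). This gene is FAM20C, a further member of the FAM20 family described above. Its 29 contigs were not in that list because their annotation gives the symbol alone. A contig named only as an uncharacterized protein followed, with a ratio of 104 ± 10.9 (40.5 to 381) from 4 control counts. *igfbp5a*, which binds insulin-like growth factors, was at 8.89, 8.18 and 10.5 CPM with 0 control counts, at least 18.8 ± 2.43-fold higher. A cationic amino acid transporter of the solute carrier family 7 (ratio 28.2 ± 9.49, interval 13.0 to 76.9) and *zp2.6* (0 control counts, at least 7.67 ± 0.710-fold) completed the 5 that are described. All 5 were picked for this pattern, so no test is given.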

How the data were processed

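The authors assembled the reads of all fish with Trinity, mapped those of each fish back to the contigs with Bowtie2 (2.1.0), where a read went to a single best hit, and used SAMtools (0.1.18) for counting. These counts are the deposited values, one per contig, not normalized by the authors. Each mapped end of a read pair is a count, so counts are not independent molecules. The intervals take counts as independent and may be too narrow even for counting error. Neither intervals nor floors cover the spread between fish. The deposited columns of log2 fold change, log2 CPM, p-value and FDR hold the authors' edgeR comparison and were not used.

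Each table was fitted whole with edgeR 4.0.16 in R 4.3.3: a quasi-likelihood test on TMM-scaled libraries, for contigs with a minimum of 1 count in 3 or more fish, with Benjamini-Hochberg adjustment and a threshold of 0.05. Counts were also summed per zebrafish annotation. Where no control had a count, the fold is against 3 counts per control library. Otherwise it is the ratio of mean CPM, with a 95% exact Poisson interval of the control counts. Binomial intervals are Clopper-Pearson. Exact permutation tests compared single values over fish. As alternatives, each fish was omitted in turn, and component sums, other filters, other scalings, edgeR's exact test and DESeq2 1.42.0 were used. Tables were made with Python 3.11.15, pandas 2.3.3, numpy 2.4.6 and scipy 1.17.1, and the tests were tried on simulated data.

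Named contigs are, for each gene, the one with the highest and the one with the lowest mean CPM over the 9 fish, contigs listed in another table, the 5 genes most like the members, and up to 4 genes per pathway list by p-value. The members and lists were chosen with earlier results of these data known. Fish were grouped by their labels, and nothing in the labels says that fish of one number belong together. Contig sequences and spike-in controls were not used here. P-values measure the spread between fish, which within an exposed group shared 1 tank.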

Additional observations from a re-analysis of the deposited data

Results flagged for a closer look

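Among the 7 gene sums and the sum of all vitellogenins in the 6 control fish, 8 groups of values were examined for a fish far from the others, and 2 had one. Control fish 5 was the only control with *vtg7*, at 0.279 CPM (2 counts), and control fish 6 the only one with *nots*, at 0.291 CPM (2 counts). All other controls had 0 counts in these 2 groups. A group of zeros with 1 value above zero always meets the criterion, so a rate by chance does not apply to them.

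The assembly components of the members also held 5 contigs without any annotation, 4 beside *vtg7* and 1 beside the other forms in comp92118. They were not counted among the members, and together they reached 91.7 CPM on average at 34.4 ng E2/l, with 4 counts in all controls together. The ratio of 855 ± 189 (SD over the 3 exposed fish, 95% counting interval 334 to 3137) lies between those of *vtg3* and *vtg1*.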

How the results depend on the processing

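The count of 136 called contigs at 34.4 ng E2/l, which the listing itself made high, was also 136 under DESeq2, edgeR's exact test, 3 other scalings, both other filters and the omission of any control fish, which is no sign of stability. Without one exposed fish the number was 65 (range over all omissions 65 to 136), because the 71 contigs with no control count then fail the minimum of 3 fish. With a minimum of 2 fish, chosen after seeing the data, it was 136 again. With the replicate number as a block, 136 contigs and all 7 gene sums were called. The deviations of fish of one number did not go together (correlations -0.05, -0.03 and 0.00), so the numbers were not taken as pairs. Summed by component, 5 of 5 components were called. The adjusted p of the gene sums was at most 1.45e-04 in every setting in which they were tested, and without one exposed fish si:dkey-4c23.3, which had no control counts, was not tested, leaving 6. The listing fixed the direction of the sums and components as well, so their calls, with or without the block, are no sign of stability either.

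The sum of all vitellogenins was 37451, 37148 and 36298 CPM without exposed fish 1, 2 and 3, and the exact permutation p then became 0.0714, the smallest that 2 against 6 fish allow. With all contigs of its component, *vtg7* took 0.0119% of all counts and 0.291% of the vitellogenin counts. The difference in *vtg3* share between controls and exposed fish was 16.6 to 27.2 percentage points over the omissions of a fish. The exact permutation p was 0.143 with each of the other 5 controls left out in turn, 0.214 with each exposed fish left out and 0.0357 without control fish 2. At 1.7 µg linuron/l the *vtg3* contig was not called in any setting that tested it, it did not pass edgeR's own filter, and DESeq2 gave it no adjusted p. Its log2 fold change was 0.58 to 1.73 over the omissions and 1.80 with the block. For the 4 tables that list no member, no alternative gives a value. The log2 ratio of *vtg2* rose from 13.10 to 13.71 without control fish 4. Other forms moved too over the omissions of a fish. Their log2 ratios ranged from 13.05 to 13.64 for *vtg1*, 12.93 to 13.67 for *vtg6* and 8.58 to 9.33 for *vtg3*. Among the counts of list members called, 9 values moved by over 1.5 times, and the median of the protease list turned from -0.0037 to 0.20 on library totals.

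The depth limits what the controls show: with 3 to 67 vitellogenin counts per fish, neither a rare form nor the make-up of a single control can be read closely.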
